A study of Mus musculus with 9 samples.

Results

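Neutrophils carry their antimicrobial proteins in granules that are filled in sequence while the cell matures in the bone marrow. Azurophil granules are filled first, in promyelocytes, with myeloperoxidase and serine proteases, and specific granules follow in myelocytes, with lactoferrin, the cathelicidin and lipocalin 2. The genes of the early granules are largely shut off before the cell enters the blood, so that a circulating neutrophil still holds these proteins but little of the mRNA of most of them. The mRNA of these genes in blood is therefore commonly read as a mark of neutrophil precursors, in which Cebpe, a transcription factor of the C/EBP family, is needed for the specific granule genes.

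The set described here holds 10 of the 20926 genes of the deposited table, and all 10 were found by their symbols. Camp, Ltf, Ngp and Lcn2 encode specific granule proteins, Mpo, Elane, Prtn3 and Ctsg encode azurophil granule proteins, Fcnb encodes ficolin B, a lectin of the innate immune system, and Cebpe encodes the factor named above. They were chosen by measured values of these same libraries, since 3 of them (Camp, Ltf and Ngp) had already been seen to differ between the groups, and their differences, and which of them fell past the criterion of the fit over all genes, are therefore given only as a description and not as a test. Of the 10 genes, 4 (Camp, Ltf, Ngp and Lcn2) had a mean of at least 1 over the 9 libraries, on the scale explained below, and the other 6 were near the bottom of what the table resolves.

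The 9 libraries came from blood RNA of male DBA/1 mice that were 7 weeks old when they were assigned to the groups, with 3 libraries in each group. The Ctrl mice had no arthritis and no irradiation. The CIA mice carried collagen-induced arthritis (a model of rheumatoid arthritis in the mouse), brought about by immunization with chick type II collagen in complete Freund's adjuvant and a booster in incomplete adjuvant, and were not irradiated. The CIA+THz mice had the same immunizations, and their swollen ankle was then exposed for 30 min daily, on 14 days, to a 0.1 THz source under isoflurane anaesthesia; whether the other groups were anaesthetized as well is not given in the sources used here.

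The deposited unit is FPKM, a fragment count corrected for transcript length and library size. For each library a median-of-ratios factor was taken from the 10312 genes that every library lists above 0, and the values below are FPKM divided by it, called rescaled FPKM. The factors lay between 0.847 and 1.24. The table holds no counts, so the depth is unknown and no counting interval can be given; the number of genes above 0 was 11816 to 12264 in Ctrl, with 11801 to 12066 in CIA and 12449 to 12807 in CIA+THz. Although the libraries are labelled as leukocyte, Alas2, a gene of red cell precursors, took 11.4% to 16.7% of the summed FPKM of each library. The 10 granule genes together took 0.0621% to 0.0824% of it in Ctrl, with 0.0942% to 0.279% in CIA and 0.0707% to 0.0994% in CIA+THz.

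Camp, Ngp and Ltf, the 3 genes with the clearest pattern, lie on the same chromosome of GRCm38 and are not neighbours. Camp is at chr9:109847379-109849617 on the minus strand, Ngp at chr9:110419747-110423012 on the plus strand and Ltf at chr9:111019271-111042767 on the plus strand. Their starts are 570 kb apart between Camp and Ngp and 600 kb apart between Ngp and Ltf. Lcn2 (chr2:32384633-32388252) and Fcnb (chr2:28076378-28084885) share chromosome 2, Cebpe (chr14:54710360-54712174) and Ctsg (chr14:56099881-56102574) share chromosome 14, and all 4 are on the minus strand. Prtn3 (chr10:79874476-79883174) and Elane (chr10:79886247-79888215) are adjacent on the plus strand, with 3.07 kb between them. Mpo is at chr11:87793581-87804413 on the plus strand. Prtn3 overlaps Plppr3 and Mpo overlaps the antisense gene Gm11505 on the opposite strand, and since the sources used here do not give the strand of the libraries, reads of such pairs cannot be told apart.

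The promoters of Camp, Ngp and Ltf are shown because these 3 genes differed most between the groups and did so together. The letters are those of RefSeq on GRCm38.p6, written 5′ to 3′ on the strand of the gene, from 250 bases before the RefSeq start up to the first base of the gene's GENCODE exons, which lie a little further upstream. Capitals mark matches to a C/EBP motif (TTNNGCAA or its reverse complement TTGCNNAA) or a PU.1 motif (GAGGAA or its reverse complement TTCCTC). The 3 stretches are chr9:109849618-109849706 on the minus strand for Camp, chr9:110419558-110419746 on the plus strand for Ngp and chr9:111019042-111019270 on the plus strand for Ltf.
Camp: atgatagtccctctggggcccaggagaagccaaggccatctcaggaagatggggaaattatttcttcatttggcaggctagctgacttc
Ngp: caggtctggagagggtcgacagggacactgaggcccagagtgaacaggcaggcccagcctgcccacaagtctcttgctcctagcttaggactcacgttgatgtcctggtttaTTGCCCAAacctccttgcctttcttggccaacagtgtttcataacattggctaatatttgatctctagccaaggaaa
Ltf: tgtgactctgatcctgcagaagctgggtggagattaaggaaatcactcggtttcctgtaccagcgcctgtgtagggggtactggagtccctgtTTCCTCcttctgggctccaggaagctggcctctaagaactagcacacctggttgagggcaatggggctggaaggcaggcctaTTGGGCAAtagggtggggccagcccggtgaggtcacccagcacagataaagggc
Over the whole 250 bases, Ngp held 2 C/EBP matches, 1 of them inside its GENCODE exon and not printed above. Ltf held 1 C/EBP match and 1 PU.1 match, and Camp held neither. Among 32851 promoters of the same length, 9.56% held a C/EBP match, 23.3% held a PU.1 match and 14% held a match to a RUNX motif (TGTGGT or ACCACA). RefSeq promoters were given for 9 of the 10 genes, all except Cebpe. Of these 9, a C/EBP match was in 4 (Ltf, Ngp, Lcn2 and Fcnb), a PU.1 match in 6 (Ltf, Lcn2, Mpo, Elane, Prtn3 and Ctsg) and a RUNX match in 1 (Ctsg). In these windows before the RefSeq start, the 4 azurophil genes each held a PU.1 match and no C/EBP match. Of the 4 specific granule genes, 3 held a C/EBP match. The window of Lcn2 had 0 bases before its first GENCODE exon base, so its matches lie downstream of the GENCODE start. That of Prtn3 (chr10:79879417-79879666) lies inside its GENCODE gene. For these genes the windows are thus not upstream of the GENCODE start, and no contrast between the granule classes is drawn. A match is a description of the letters and says nothing of binding.

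Camp encodes the mouse cathelicidin, an antimicrobial peptide precursor stored in specific granules. Its rescaled FPKM was 1.64, 3.36 and 7.61 in Ctrl, 68.6, 108 and 155 in CIA, and 18.5, 37.3 and 23.7 in CIA+THz. The 3 groups did not overlap, and CIA+THz lay between the others. The mean was 4.2 ± 3.08 (SD, n = 3) in Ctrl, with 110.3 ± 43.1 in CIA and 26.5 ± 9.70 in CIA+THz. On the scale of log2(rescaled FPKM + 0.1), which is used for all differences here and understates those of genes near 0, CIA exceeded Ctrl by 4.86 ± 0.54 (SE), CIA+THz differed from CIA by -2.04 ± 0.35, and CIA+THz exceeded Ctrl by 2.83 ± 0.52. The lowest CIA library was thus higher than the highest of the other 6 libraries, although Ctrl itself spread from 1.64 to 7.61.

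Ltf encodes lactoferrin, an iron-binding protein of the specific granules. Its values were 3.19, 3.74 and 3.85 in Ctrl, 29.8, 65.7 and 122 in CIA, and 11.9, 20.5 and 17.4 in CIA+THz. Again no library of a group overlapped with those of another. Ctrl was tight, with a mean of 3.60 ± 0.351 (SD, n = 3), whereas CIA was wide, with 72.5 ± 46.4, and CIA+THz had 16.6 ± 4.38. The log2 differences were 4.08 ± 0.46 (SE) for CIA against Ctrl, -1.93 ± 0.49 for CIA+THz against CIA and 2.14 ± 0.22 for CIA+THz against Ctrl.

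Ngp, neutrophilic granule protein, belongs to the same cystatin-like superfamily as the cathelicidins and was the most abundant of the 3. It read 70.1, 88.7 and 41.6 in Ctrl, 265, 562 and 938 in CIA, and 120.4, 188 and 130.1 in CIA+THz. The order of the groups was the same as for Camp and Ltf, with no overlap. Group means were 66.8 ± 23.7 (SD, n = 3), 588 ± 337 and 146 ± 36.6. The log2 differences were 3.02 ± 0.47 (SE) for CIA against Ctrl, -1.86 ± 0.44 for CIA+THz against CIA and 1.17 ± 0.29 for CIA+THz against Ctrl.

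In the CIA group the 3 genes were ordered alike over the libraries, lowest in CIA 1 and highest in CIA 3. Their summed level was 364 in CIA 1, 735 in CIA 2 and 1215 in CIA 3, against 53.1 to 95.8 in Ctrl and 151 to 246 in CIA+THz. The coefficient of variation within CIA was 39.1% for Camp, 64.0% for Ltf and 57.3% for Ngp, while the median over genes within 2-fold of the same mean was 11.6%, 11.9% and 13.2%. The same comparison gave 36.6% for Camp, 26.4% for Ltf and 25.1% for Ngp in CIA+THz, beside medians of 9.40%, 10.5% and 7.90%. In Ctrl it gave 73.2% for Camp beside 22.5% and 35.5% for Ngp beside 12.1%, but 9.77% for Ltf beside 23.8%. A wide spread between libraries was thus seen in all 3 groups for Camp and Ngp, and in CIA and CIA+THz for Ltf. CIA 3 was also the highest CIA library for Mpo, Prtn3 and Ctsg, CIA 1 was the highest for Cebpe and Elane, and CIA 2 for Lcn2 and Fcnb. When each of the 6 libraries was left out in turn, the log2 difference of CIA+THz from CIA lay between -2.34 and -1.75 for Camp, -2.46 and -1.45 for Ltf, and -2.34 and -1.43 for Ngp.

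**Figure D1:**
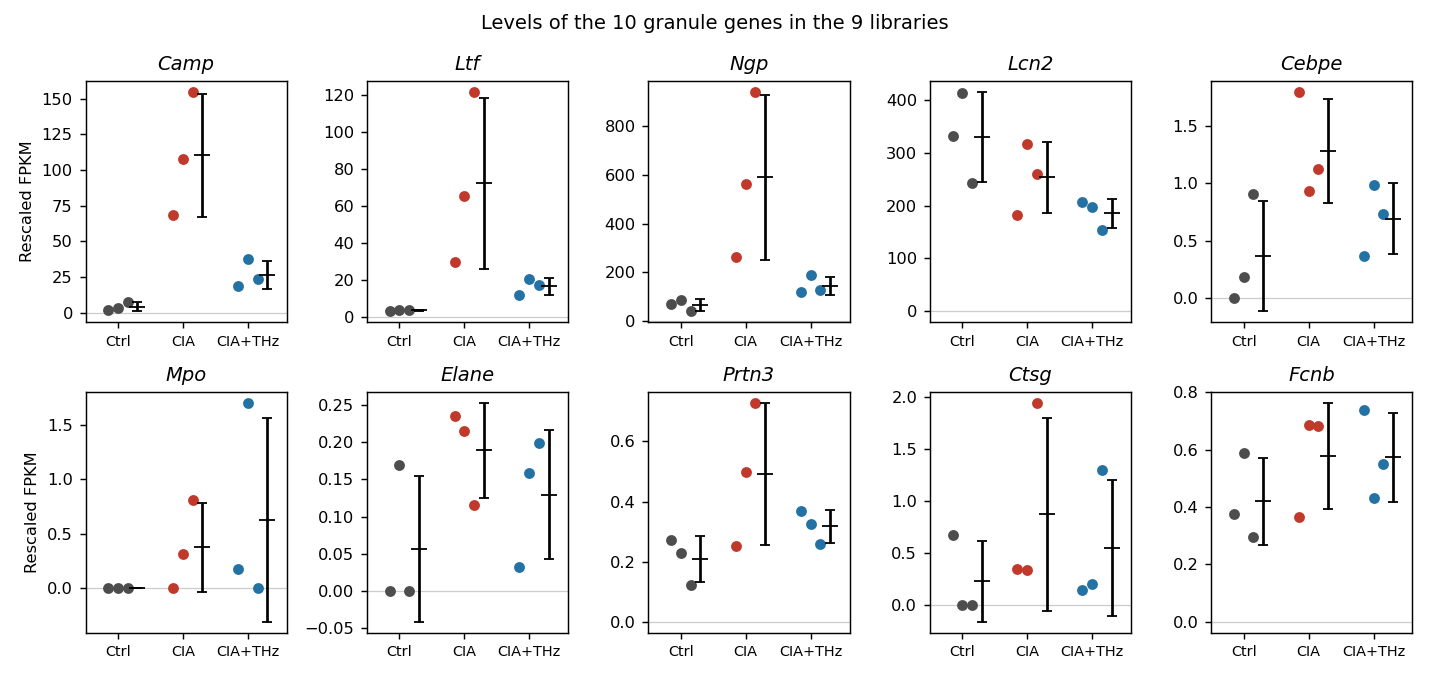
Rescaled FPKM (linear axis, its own range for each gene) of the 10 granule genes in the 3 libraries of Ctrl, CIA and CIA+THz. Points are libraries 1 to 3 from left to right, the dash and bars beside them are the mean ± SD; Camp, Ltf and Ngp are highest in all 3 CIA libraries, Lcn2 is not, and the other 6 genes stay under 2.

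Lcn2 encodes lipocalin 2, which binds bacterial siderophores; it is stored in specific granules and is also induced by inflammatory cytokines in mature and non-myeloid cells. Its level was 333, 413 and 243 in Ctrl, 182, 317 and 261 in CIA, and 206, 197 and 155 in CIA+THz. Unlike the other 3 specific granule genes, it was not higher in CIA, where the libraries overlapped with those of Ctrl. The mean was 329.6 ± 85.3 (SD, n = 3) in Ctrl, with 253 ± 67.5 in CIA and 186 ± 27.4 in CIA+THz. The log2 difference was -0.38 ± 0.26 (SE) for CIA against Ctrl and -0.42 ± 0.22 for CIA+THz against CIA, both with overlap. Every CIA+THz library was below every Ctrl library, with a difference of -0.80 ± 0.21, which was -0.50 with FPKM as deposited. That difference was past the criterion explained below, but not with FPKM as deposited or without Ctrl 2.

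Cebpe was low throughout. It was listed at 0, 0.185 and 0.905 in Ctrl, at 1.79, 0.928 and 1.13 in CIA, and at 0.363, 0.980 and 0.728 in CIA+THz. The CIA libraries lay above those of Ctrl, by a margin of 0.928 against 0.905 at the nearest pair, and overlapped with CIA+THz. The log2 difference of CIA from Ctrl was 2.13 ± 0.84 (SE) and 0.78 with a pseudocount of 1. Without Ctrl 1, which was listed at 0, it was 1.32, and it was not past the criterion explained below without Ctrl 1, Ctrl 2 or any 1 of the CIA libraries.

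The azurophil genes were barely detected in any group. Mpo, myeloperoxidase, was listed at 0 in all 3 Ctrl libraries, at 0, 0.317 and 0.812 in CIA, and at 0.181, 1.70 and 0 in CIA+THz. Elane, neutrophil elastase, was listed at 0, 0.169 and 0 in Ctrl, 0.236, 0.215 and 0.116 in CIA, and 0.0322, 0.158 and 0.199 in CIA+THz. All groups overlapped for both genes, and for Mpo a fold against Ctrl cannot be given. Prtn3, proteinase 3, read 0.273, 0.228 and 0.124 in Ctrl, 0.253, 0.497 and 0.726 in CIA, and 0.368, 0.326 and 0.260 in CIA+THz. Ctsg, cathepsin G, read 0.675, 0 and 0 in Ctrl, 0.343, 0.330 and 1.95 in CIA, and 0.140, 0.202 and 1.30 in CIA+THz. Neither separated CIA from Ctrl or from CIA+THz. The 4 genes summed to 0.124 to 0.948 in Ctrl, with 0.832 to 3.60 in CIA and 0.721 to 2.39 in CIA+THz, so that the groups overlapped in the sum as well. The level of Ngp alone was at least 41.6 in every library, and the azurophil genes lay far below it.

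Fcnb, which is made by myeloid precursors in the bone marrow, read 0.377, 0.588 and 0.294 in Ctrl, 0.365, 0.687 and 0.684 in CIA, and 0.738, 0.432 and 0.549 in CIA+THz. The groups overlapped, and the log2 difference was 0.38 ± 0.47 (SE) for CIA against Ctrl and 0.0042 ± 0.39 for CIA+THz against CIA.

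The comparison across the table used limma on 12366 genes whose mean rescaled FPKM reached 0.1, each pair of groups on its own 6 libraries, and the criterion was an unadjusted p under 0.05 with an absolute log2 difference above 0.67. All 10 granule genes were above that minimum. In CIA against Ctrl, 4.79% of all genes were past the criterion as higher and 4.25% as lower, and of the 10 granule genes Camp, Ltf, Ngp and Cebpe (4) were higher and none lower. No overlap between the libraries, with CIA higher, was found for 11.8% of all genes and for the same 4 granule genes. In CIA+THz against CIA, 2.94% of all genes were higher and 1.6% lower, and Camp, Ltf and Ngp (3) were lower; no overlap with CIA+THz lower was found for 10.2% of all genes and for the same 3. In CIA+THz against Ctrl, 4.64% of all genes were higher and 3.24% lower, and Camp, Ltf and Ngp were higher and Lcn2 lower. Since the genes were picked on these libraries, nothing is read from those counts. The share of all genes without overlap was not counted for CIA+THz against Ctrl. The lack of overlap between CIA+THz and Ctrl given above for Camp, Ltf, Ngp and Lcn2 therefore has no such share beside it.

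A Benjamini-Hochberg adjusted p under 0.05 by limma was reached by 0.154% of all genes in CIA against Ctrl (19 genes), by 0.105% in CIA+THz against Ctrl (13 genes) and by 0.0% in CIA+THz against CIA (0 genes, where 1634 had an unadjusted p under 0.05 and the smallest adjusted p was 0.164). The 3 comparisons share libraries pairwise, so that the 3 sets of differences are not independent. With FPKM as deposited, the split of higher and lower genes moved from 363 and 198 to 1126 and 66 in CIA+THz against CIA, and from 574 and 401 to 1596 and 120 in CIA+THz against Ctrl. The median of all genes in CIA+THz against CIA was 0.025 after rescaling and 0.29 as deposited, and the differences of Camp, Ltf and Ngp kept their direction on both scales.

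**Figure D2:**
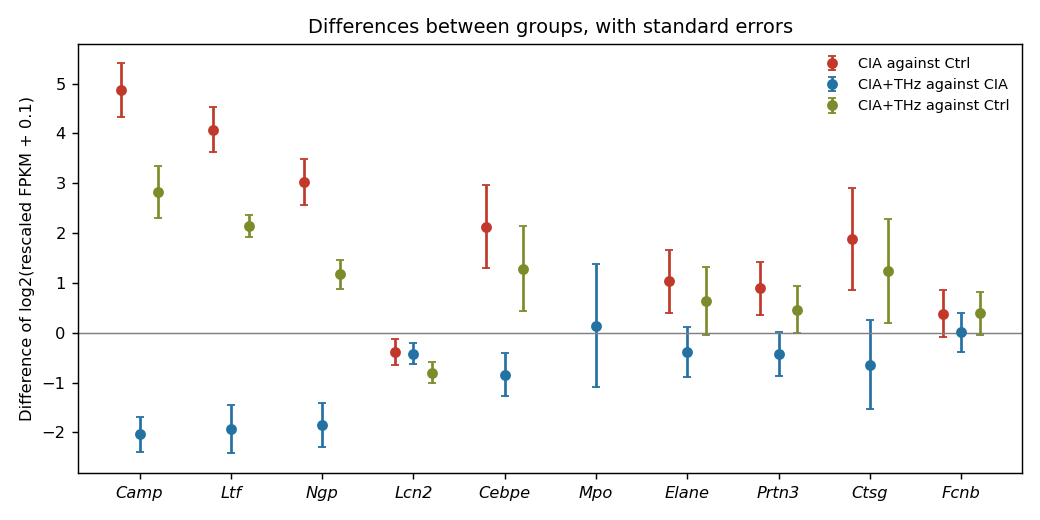
Differences of log2(rescaled FPKM + 0.1) between pairs of groups for the 10 granule genes; points are the differences and bars ± 1 standard error from limma, with 3 libraries in each group. Camp, Ltf and Ngp are between 3.02 and 4.86 in CIA against Ctrl and between -2.04 and -1.86 in CIA+THz against CIA, the bars of the low genes are wide, and Mpo, listed at 0 in all Ctrl libraries, is shown only in CIA+THz against CIA.

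Ratios of genes within a library do not depend on the rescaling. Ngp per 100 FPKM of S100a8, a calcium-binding protein gene that mature neutrophils express at a very high level, was 3.60 to 4.09 in Ctrl, with 21.3 to 60.9 in CIA and 11.3 to 17.4 in CIA+THz. Camp per 100 of S100a8 was 0.0858 to 0.658 in Ctrl, with 5.50 to 10.04 in CIA and 1.73 to 3.46 in CIA+THz, and Ltf per 100 of S100a8 was 0.167 to 0.333, 2.39 to 7.91 and 1.11 to 1.90. For these 3 genes the groups stayed apart when read against S100a8, as they already did in their own levels, for which the genes were chosen. S100a8 itself was 1744 ± 525 (SD, n = 3) in Ctrl, with 1446 ± 172 in CIA and 1041 ± 57.8 in CIA+THz. Its difference of CIA+THz from Ctrl was -0.70 ± 0.24 (SE), past the criterion. A lower S100a8 raises these ratios, so they overstate the differences of the 3 genes from Ctrl. Lcn2 behaved otherwise, with 17.4 to 21.0 per 100 of S100a8 in Ctrl, with 14.6 to 20.4 in CIA and 15.9 to 19.3 in CIA+THz, which overlap. Among themselves the 3 genes kept closer proportions in the arthritic groups: Camp per 100 of Ngp was 16.5 to 25.9 in CIA and 15.4 to 19.8 in CIA+THz, and Ltf per 100 of Ngp was 11.3 to 12.99 and 9.85 to 13.4. In Ctrl these ratios were 2.34, 3.79 and 18.3 for Camp and 4.56, 4.22 and 9.26 for Ltf, so Ctrl 3 had a Camp ratio within the range of CIA and the other 2 Ctrl libraries did not. Blood RNA is a mixture, and in these ratios too a larger number of precursor cells and more RNA per cell cannot be told apart.

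**Figure D3:**
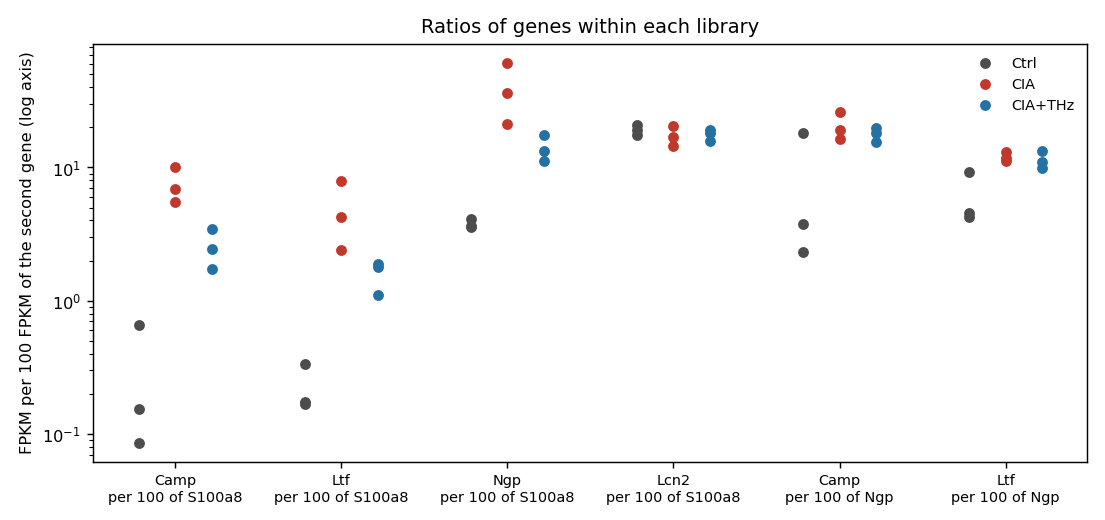
FPKM of a granule gene per 100 FPKM of S100a8 or of Ngp in the same library (log axis), with points for the 3 libraries of Ctrl (grey), CIA (red) and CIA+THz (blue). Camp, Ltf and Ngp against S100a8 separate the 3 groups without overlap, Lcn2 against S100a8 lies between 14.6 and 21.0 in all of them, and Camp and Ltf against Ngp overlap in CIA and CIA+THz.

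Other genes of granulocyte maturation were read from lists by role. Of 16 other specific granule and myelocyte genes, all tested, 3 were past the criterion as higher in CIA than in Ctrl (Chil3, Cybb and Orm1), 3 as lower (Mmp8, Olfm4 and Cd24a) and 10 were not past it. Chil3, which encodes a chitinase-like lectin made by myelocytes and also by monocytes and macrophages, rose by 1.47 ± 0.13 (SE) on the log2 scale, from 55.8 ± 6.84 (SD, n = 3) to 154 ± 8.94, with an adjusted p of 0.0194 by limma. Cybb, the large membrane subunit of the phagocyte oxidase, rose by 1.16 ± 0.15 (adjusted p = 0.0501 by limma). Mmp8, neutrophil collagenase of the specific granules, went the other way and was 216 ± 72.8 in Ctrl and 82.9 ± 21.3 in CIA, a difference of -1.35 ± 0.31 (adjusted p = 0.105 by limma). Orm1 was listed at 0 in Ctrl. The calls for Orm1, Olfm4 and Cd24a were all lost without Ctrl 1, Ctrl 2 or CIA 2, and also without Ctrl 3 or CIA 3 for Orm1, without CIA 1 for Olfm4, and without CIA 1 or CIA 3 for Cd24a. The median difference over the 16 genes was 0.23, beside -0.0051 over all genes tested.

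Of these 16 genes, 2 fell in CIA+THz against CIA and none rose. Cd177, a surface receptor of neutrophils, read 64.0, 105 and 97.5 in CIA and 50.2, 44.1 and 40.5 in CIA+THz, a difference of -0.95 ± 0.20 (SE, adjusted p = 0.210 by limma). Chil3 fell from 154 ± 8.94 (SD, n = 3) to 86.9 ± 8.11, by -0.82 ± 0.10 (adjusted p = 0.164 by limma), and was not past the criterion with FPKM as deposited. The median of the list was -0.30 after rescaling and -0.028 as deposited, and the number of genes with a lower value was 15 of 16 after rescaling and 8 as deposited. Compared with Ctrl, the CIA+THz libraries had Abca13 and Cybb past the criterion as higher and Mmp8, Olfm4 and Cd24a as lower. Of these, Abca13, Olfm4 and Cd24a did not pass without single libraries, CIA+THz 1 among them for all 3. Olfm4 and Cd24a also did not pass with FPKM as deposited. Mmp8 was -1.43 ± 0.25 in CIA+THz against Ctrl (adjusted p = 0.0803 by limma), close to its difference in CIA. It therefore did not follow Camp, Ltf and Ngp although it belongs to the same granule class.

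Of 8 other promyelocyte genes, 1 rose in CIA against Ctrl, none fell, and none was past the criterion in CIA+THz against CIA. The gene that rose was Lyz2, lysozyme, which monocytes also express strongly. It was 2812, 2809 and 2529 in Ctrl, 4792, 4436 and 4916 in CIA, and 2961, 2851 and 3078 in CIA+THz, and CIA exceeded Ctrl by 0.80 ± 0.20 (SE, adjusted p = 0.123 by limma). Prss57, a serine protease of the azurophil granules, was listed at 0 in all 3 Ctrl libraries, at 0, 2.51 and 0.763 in CIA, and at 0.522, 1.51 and 1.79 in CIA+THz. It was past the criterion in CIA+THz against Ctrl (adjusted p = 0.0660 by limma), and no fold is given against a group at 0. Ms4a3, a membrane protein of granulocyte and monocyte progenitors, was at 0 in Ctrl and reached 1.13 in CIA and 0.67 in CIA+THz. These low values resemble those of Mpo, above 0 in some arthritic libraries and listed at 0 in Ctrl.

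Ctsc, cathepsin C, which activates the serine proteases of the azurophil granules, read 73.1, 65.0 and 52.7 in Ctrl, 96.3, 79.4 and 114 in CIA, and 87.0, 76.6 and 83.5 in CIA+THz. The list of 5 genes of protease processing and inhibition (Ctsc, Cst7, Srgn, Serpinb1a and Slpi) had none past the criterion in any of the 3 comparisons. The difference of CIA from Ctrl was 0.60 ± 0.18 (SE) for Ctsc, the highest of the 5. Slpi, an inhibitor of neutrophil elastase, had -0.52 ± 0.14 in CIA+THz against CIA, the lowest of the 5.

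Transcription factors of the granulocyte lineage were measured as a list of 9. Cebpa, which drives the first steps of granulocyte commitment and is also active in monocytes, was 22.3, 20.8 and 14.5 in Ctrl, 28.7, 39.4 and 42.4 in CIA, and 27.9, 25.8 and 25.9 in CIA+THz. It rose by 0.94 ± 0.22 (SE) in CIA against Ctrl (adjusted p = 0.108 by limma), and its difference in CIA+THz against CIA was -0.45 ± 0.16 and not past the criterion. Runx1 was lower in CIA than in Ctrl, by -0.74 ± 0.29 (adjusted p = 0.263 by limma), a call lost when any Ctrl library or CIA 2 or CIA 3 was left out. Spi1, which encodes PU.1, was 0.58 ± 0.15 above Ctrl in CIA without passing the criterion. Gfi1, a repressor needed for neutrophil differentiation, stayed under 2 in every library and was higher in CIA+THz than in CIA by 1.82 ± 0.61 (adjusted p = 0.301 by limma); without CIA+THz 1 or CIA+THz 3 it was not past the criterion. Cebpb was past the criterion as lower in CIA+THz against Ctrl, but its values jumped within groups, with 102, 4.56 and 106 in CIA and 61.6, 2.08 and 1.52 in CIA+THz. Cebpd, Cbfb, Myb and Irf8 were not past the criterion in any comparison.

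Genes of late and mature neutrophils were read as a list in the same way. Of 16 such genes, none rose and 3 fell in CIA against Ctrl (Il1r2, Fpr1 and Adam8), with a median of -0.22 over the list, and the call for Adam8 was lost without Ctrl 1 or CIA 1. Il1r2, the decoy receptor of interleukin 1, was 22.3 ± 4.77 (SD, n = 3) in Ctrl and 11.3 ± 4.06 in CIA, a difference of -1.01 ± 0.27 (SE, adjusted p = 0.152 by limma). Fpr1, a receptor for formylated peptides, had -1.0 ± 0.21 (adjusted p = 0.0969 by limma). S100a9, the partner of S100a8, was 13128 ± 3612 in Ctrl and 12852 ± 1642 in CIA. No gene of this list was past the criterion as higher in CIA, beside 4.79% of all genes, and 4.25% of all genes were lower. Camp, Ltf and Ngp were picked on these libraries, so no contrast with them is read from this count.

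Between CIA and CIA+THz, Retnlg and Il1r2 (2 of the 16) fell, by -0.83 ± 0.13 and -0.70 ± 0.25 (SE, adjusted p = 0.172 and 0.319 by limma), and neither was past the criterion with FPKM as deposited. Il1r2 also did not pass without CIA 2, CIA+THz 2 or CIA+THz 3. All 16 were lower after rescaling, with a median of -0.34, whereas with FPKM as deposited 10 were lower and the median was -0.065. Against Ctrl, 7 of the 16 fell in CIA+THz, and Il1r2 (-1.71 ± 0.19) and Padi4 (-1.08 ± 0.12), the peptidylarginine deiminase of neutrophil chromatin release, reached an adjusted p of 0.0330 by limma. Adam8, S100a8 and G0s2 were not past the criterion with FPKM as deposited, which leaves Fpr1, Il1r2, Padi4 and Retnlg (4 genes). S100a8 also did not pass without Ctrl 1, Ctrl 2 or any 1 of the CIA+THz libraries, and G0s2 not without Ctrl 1. The rescaled median there was -0.61, and -0.30 as deposited.

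**Figure D4:**
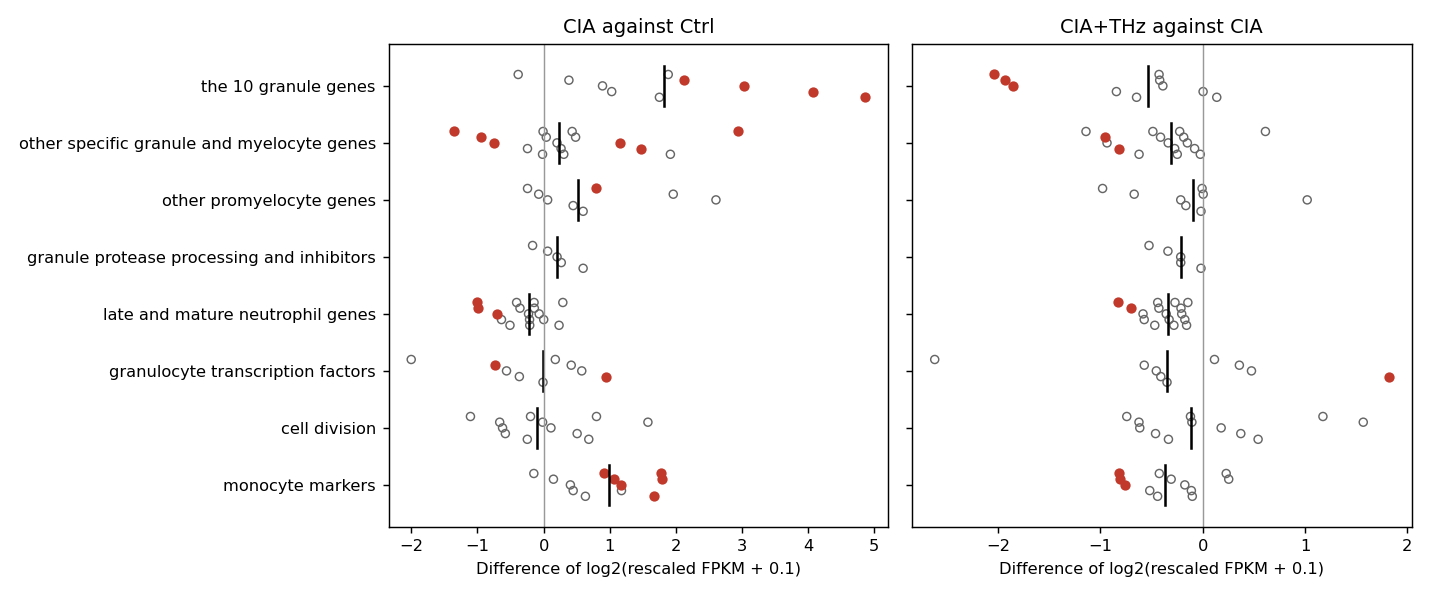
Differences of log2(rescaled FPKM + 0.1) in CIA against Ctrl (left) and CIA+THz against CIA (right) for the 10 granule genes and 7 lists. Each circle is a gene, filled where it was past the criterion, black lines are list medians, and genes listed at 0 in a group are at a fitted difference that depends on the pseudocount; the late and mature neutrophil genes all lie below 0 on the right (10 of 16 with FPKM as deposited) and have a median of -0.22 on the left, where Camp, Ltf and Ngp reach 3.02 to 4.86.

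Genes of release from the bone marrow and of G-CSF signalling were read as a list of 10. Csf3, which encodes G-CSF, was listed at 0 in all 9 libraries, and of the other 9 genes none was past the criterion in CIA against Ctrl or in CIA+THz against Ctrl. Some lay below Ctrl by less than the 0.67 that the criterion asks for. Cxcr2, a chemokine receptor of neutrophil release, differed from Ctrl by -0.36 ± 0.15 (SE) in CIA and -0.64 ± 0.12 in CIA+THz. Jak2, a kinase of cytokine signalling, differed by -0.46 ± 0.14 and -0.39 ± 0.12. Csf3r, the receptor of G-CSF, was 619.7 ± 72.6 (SD, n = 3) in Ctrl, with 731 ± 110.5 in CIA and 579 ± 36.8 in CIA+THz. Cxcl12, the chemokine that holds granulocytes in the marrow, was past the criterion as higher in CIA+THz than in CIA (1.66 ± 0.58 SE, adjusted p = 0.314 by limma), at levels between 0.251 and 2.76, and not without CIA 1, CIA 2, CIA+THz 1 or CIA+THz 2. Cell division genes, which are active in promyelocytes and myelocytes, had none of 12 past the criterion in CIA against Ctrl or in CIA+THz against CIA. Mki67, a proliferation marker, was lower in CIA+THz than in Ctrl by -0.95 ± 0.20 (adjusted p = 0.106 by limma) and not past the criterion with FPKM as deposited. Among 6 stem and progenitor markers, Flt3 alone rose in CIA against Ctrl, by 1.65 ± 0.54 (adjusted p = 0.200 by limma), from 0.430 ± 0.292 to 1.5 ± 0.627, and it did not pass without Ctrl 2, Ctrl 3 or CIA 3.

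Markers of other blood cells moved between the groups as well, and their part in the values of the granule genes was not tested. Of 12 monocyte markers, 6 rose in CIA against Ctrl and 4 of them (Tifab, Ms4a6d, Fn1 and Csf1r) had an adjusted p of 0.0361 by limma, and the list summed to 673 to 732 in Ctrl, with 1026 to 1136 in CIA and 793 to 852 in CIA+THz. Fn1, Cd14 and Ms4a6d fell in CIA+THz against CIA, and none of the 3 was past the criterion with FPKM as deposited. After rescaling, the sum of the monocyte markers thus had the same order of groups as Camp, Ltf and Ngp, over a narrower range. In CIA+THz against CIA, 10 of the 12 markers were lower after rescaling, with a median of -0.37. With FPKM as deposited 7 were lower, and the median was -0.088. Single markers did not share the order, since the mean of Cd14 was highest in Ctrl and those of Cx3cr1 and Klf4 in CIA+THz. Erythroid markers, 9 of which were tested, had none higher and 2 lower in CIA against Ctrl (Klf1 and Tmod1), none past the criterion in CIA+THz against CIA, and summed to 79138 to 122393 in Ctrl, with 97583 to 110813 in CIA and 54138 to 75105 in CIA+THz. Most of that sum was Alas2, with means of 85630, 91159 and 55983, so it does not describe the list. The median of the 9 genes in CIA+THz against CIA was -0.075 after rescaling, with 6 lower and 3 higher, and 0.20 with FPKM as deposited. T cell markers summed to 321 to 379.6 in Ctrl, with 276 to 316 in CIA and 332 to 445 in CIA+THz, with Cd5 past the criterion as higher in CIA+THz than in CIA. B cell markers summed to 479 to 567, 523 to 664 and 617 to 805, with Blk past the criterion in CIA against Ctrl. Platelet markers had none of 9 past the criterion in any comparison. Of 12 eosinophil and basophil markers, 10 were tested, since Epx and Prg3 were under the minimum; Mcpt8 was higher and Cpa3 lower in CIA against Ctrl, and Cpa3 and Fcer1a were higher in CIA+THz against CIA. Among these marker calls, Tmod1 did not pass without any 1 of the Ctrl libraries, CIA 2 or CIA 3, Blk without Ctrl 1, Ctrl 2, CIA 1 or CIA 2, Mcpt8 without Ctrl 2, Ctrl 3, CIA 1 or CIA 3, Cd5 without CIA 2 or CIA+THz 1, and Fcer1a without CIA 1.

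The stretch of chromosome 9 from Camp to Ltf (1195 kb) holds 28 other genes of the table, of which 16 were tested. In CIA against Ctrl, Kif9, a kinesin gene, was past the criterion as higher, by 3.48, Tdgf1 and Als2cl were lower, by -2.97 and -1.24, and the median of the 16 was -0.097. Levels, standard errors and results with single libraries left out are not given here for Kif9, Tdgf1 and Als2cl. Whether their values were near 0, where a difference depends on the pseudocount, is therefore not shown. For CIA+THz against CIA none of the 16 was past the criterion, with a median of 0.12. Ptpn23 and Klhl18, the tested genes nearest to Ngp on its 2 sides, had 0.57 and 0.27 in CIA against Ctrl. With CIA+THz compared to Ctrl, Kif9 alone of the 16 was past the criterion, as higher by 3.78, and the median was 0.022. Camp, Ngp and Ltf were also higher in CIA and in CIA+THz than in Ctrl. Of the genes between them, 1 of 16 was past the criterion as higher in CIA and in CIA+THz. Beside it stand 4.79% and 4.64% of all genes tested, and 4.25% beside the 2 that were lower in CIA. Both comparisons use the same Ctrl libraries, and nothing is read from these counts.

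**Figure D5:**
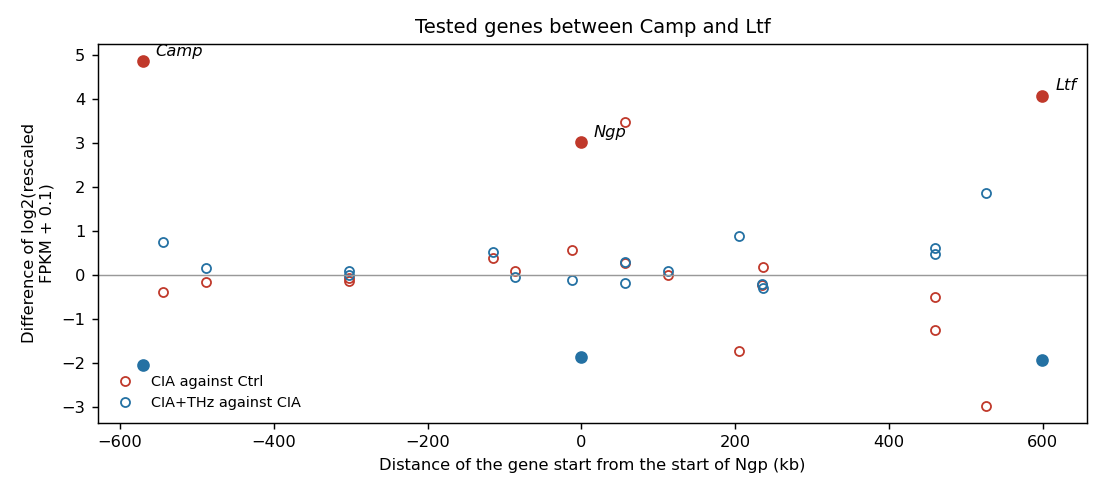
Differences of log2(rescaled FPKM + 0.1) for Camp, Ngp and Ltf (filled) and the 16 tested genes between them (open) against the distance of the gene start from the start of Ngp in kb. Red points are CIA against Ctrl and blue points CIA+THz against CIA; Camp, Ngp and Ltf have the lowest values in CIA+THz against CIA, between -2.04 and -1.86.

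Genes with a similar pattern over the 9 libraries were sought among the 9744 other genes whose mean rescaled FPKM reached 1, by the root mean square difference between the centred log2 profile of a gene and the mean centred profile of Camp, Ltf, Ngp and Lcn2. The closest 8 were Clybl, Asns, Apoe, Tmem176b, Tmem176a, Lrp1, Cyp27a1 and 0610040J01Rik, with differences of 0.507 to 0.642, against a median of 1.28 over the genes compared. Clybl, an enzyme of mitochondrial citramalyl-CoA breakdown, read 0.881, 0.461 and 0.353 in Ctrl, 1.71, 2.95 and 4.13 in CIA, and 1.38, 1.21 and 1.09 in CIA+THz. Asns, asparagine synthetase, read 5.61, 7.64 and 3.18 in Ctrl, 13.02, 23.3 and 24.7 in CIA, and 9.06, 13.8 and 10.9 in CIA+THz. Both were lowest in CIA 1 among the CIA libraries, as was the profile that they were chosen to match, so this order is no separate result. Of the 8 genes, Tmem176a was lowest in CIA 2 instead, with 7.47, 6.77 and 8.67 in CIA. Lcn2 itself lay at 1.4 from the mean profile it helped to make, while Ngp lay at 0.315, Ltf at 0.529 and Camp at 0.959. When Lcn2 was left out of the profile, a choice made after its values had been seen, Guca1a came first with 0.406, and 3 of the 8 genes (Clybl, Tmem176a and Tmem176b) were shared with the first list. Guca1a was listed at 0 in all 3 Ctrl libraries, at 0.894, 3.05 and 3.51 in CIA and at 0.341, 0.932 and 0.658 in CIA+THz. Its mean over the 9 libraries was 1.04. It reached the minimum of 1 only through CIA, where its mean was 2.49, so its place in the list follows in part from that filter. The same holds for Clybl, the closest gene of the first list. Its CIA mean was 2.93, beside 0.565 for Ctrl and 1.23 for CIA+THz. Without the CIA libraries Clybl would not have reached that minimum. The likeness is a description over 9 libraries whose pattern was already known for Camp, Ltf and Ngp.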

How the data were processed

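The authors deposited a table of FPKM, with the 9 libraries as columns and 20926 gene symbols as rows; all 9 columns were mapped by name to the labels, and 0 other columns of values were found. Total blood RNA was sequenced as paired ends on an Illumina HiSeq instrument. The submitters' processing notes list bcl2fastq 2.0, HISAT2, StringTie, DESeq2 and mm10, without their settings or roles. No whole-read steps were found in the FPKM, so that read depth could not be recovered. The annotation and strand setting are not given in the sources used here.

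FPKM were rescaled with a median-of-ratios factor per library and tested as log2(rescaled FPKM + 0.1) by lmFit and trended eBayes of limma 3.58.1, in R 4.3.3, for genes with a mean of at least 0.1; the criterion follows the study's (unadjusted p under 0.05, absolute log2 difference above 0.67), and Benjamini-Hochberg adjusted p-values were taken over all 12366 genes. Standard errors are limma's moderated ones. The code was tested on simulated data. The labels number the libraries of a group 1 to 3 and name no animal, so p-values measure the spread between these libraries. The mice were assigned to separate groups, so the numbers pair no animals.

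The granule genes and the 14 lists were chosen with earlier results of these data known. Named were all 10 granule genes, list genes past the criterion (at most 4 per list and comparison), the genes of the lists of transcription factors, proteases and promyelocytes, and the 8 closest profiles. S100a8, S100a9, Csf3r, Csf3, Cxcr2, Jak2, Alas2, the genes between Camp and Ltf, and the profiles without Lcn2 were named after their values were seen. Coordinates are those of GENCODE M21 on GRCm38, the same sequence as mm10, matched by symbol. Alternatives were FPKM as deposited, a pseudocount of 1, a minimum mean of 1 or no filter, the 3 groups fitted together, no trend, the replicate block, each library left out and the adjusted p in the criterion. The hemoglobin genes and Ahsp were not analysed here. Figures were drawn with matplotlib 3.10.9.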

Additional observations from a re-analysis of the deposited data

How the results depend on the processing

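With 3 libraries in each group, no read counts and an unadjusted criterion, single calls among low genes are weak. The counts of granule genes below describe genes chosen on these libraries and show no stability. With the adjusted p in the criterion, 19 genes remained in the count for CIA against Ctrl, 2 of them granule genes, 0 and 0 for CIA+THz against CIA, and 13 and 1 for CIA+THz against Ctrl. In CIA+THz against CIA, FPKM as deposited gave 1192 genes in place of 561 and a pseudocount of 1 gave 283. In CIA+THz against Ctrl, FPKM as deposited gave 1716 in place of 975. Rescaling by itself shifts the median of all genes between these scales.

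Leaving out each library in turn gave 966 to 1261 genes for CIA against Ctrl, 484 to 745 for CIA+THz against CIA and 724 to 1487 for CIA+THz against Ctrl, with 1487 without Ctrl 3. The number of granule genes past the criterion was 3 to 5, 3 to 3 and 3 to 5. With the replicate number as a block the counts of genes were 1073, 506 and 967; the deviations of same-numbered libraries correlated between -0.0517 and 0.0309, so the numbers show no pairing. Over all alternatives, calls of list genes kept the side of the criterion 708 times and lost it 226 times. No direction of a called value reversed.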
